A study of Brassica napus with 3 samples.

Results

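Summits of histone H3 lysine 4 trimethylation (H3K4me3) on B. rapa pseudochromosome 7 were taken as all entries of 2 deposited summit lists that lay on the sequence numbered 7. They came to 2745 of 27672 control summits and 3077 of 31464 PEG1 summits, which was 9.92% and 9.78% of the lists. The plants were Brassica napus (canola), an allotetraploid whose A subgenome is related to B. rapa. Each summit is the base at which a peak of sequenced nucleosomes was highest, and it carries a score that is the −log10 of a p-value or q-value from the authors' peak caller.

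Both groups were leaf 4 of untreated plants aged 26 days from the cultivar labelled L. spp. oleifera (Metzg) Sinsk. f. biennis, and both were precipitated with the same anti-H3K4me3 antibody. The control group was the Control line, which the protocol calls wild-type. The PEG1 group was the PEG1 selected epiline, from a selection aimed at energy efficiency and drought tolerance. Chromatin was not crosslinked: 1.5 g of leaf powder gave nuclei that were cut with 30 U of micrococcal nuclease for 10 minutes, so that mostly single nucleosomes met the 2.5 ug of antibody. The labels give 1 library per line and do not say how many plants were pooled. No difference between the lines therefore has a replicate check, and no test between them was possible. Intervals are 95% intervals that cover counting error only. The no-antibody library of the control line was not analysed here.

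H3K4me3 is placed by COMPASS-like methyltransferases on the nucleosomes that follow the start of transcribed genes, and proteins with PHD-finger domains bind it. In plants it marks active genes in euchromatin and is scarce over repeats and transposons, which crowd around centromeres. The density of H3K4me3 summits along a plant chromosome therefore usually follows the density of its expressed genes. Genes under these summits were not named, because the available gene annotation is of another assembly than the BGI pseudochromosomes version V1 of BR5307 that the sequence names give. Regions are named by 1-based coordinates of that build, and for the same reason no sequence is printed.

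Control and PEG1 summits covered the whole sequence. The first summit stood at position 748 in the control and 760 in PEG1, and the last at 26221145 and 26221141. The length of the sequence was not given in the files, so densities refer to the 26.2 Mb up to the last summit. They were 105 control and 117 PEG1 summits per Mb. PEG1 had 332 summits more, a ratio of 1.12 (1.06 to 1.18). Over pseudochromosomes 1 to 10 this ratio ran from 1.12 to 1.17, and the value of 7 was the lowest of the 10, although its interval covered all of them. The interval treats summits found at the same place in both lines as separate draws, so it is too wide. Its cover of the other ratios therefore does not show that they are equal. Read depth is unknown for both libraries, and the peak names of the control list carry another prefix, with the word Test, than those of the PEG1 list. The sources used here do not say whether the settings were the same for both.

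H3K4me3 summits were denser on the high-coordinate side of pseudochromosome 7 than on the low-coordinate side in both lines. From 1 to 5000000 the control had 74.4 summits per Mb and PEG1 84.2. From 5000001 to 10000000 the values were 79.2 and 89.8, and from 10000001 to 15000000 they were 105.8 and 119.6. They went on to 124.8 and 139.2 from 15000001 to 20000000, and to 147 and 162.8 from 20000001 to 25000000. Density thus climbed from one 5 Mb segment to the next in both lists. After 25000000 it dropped to 72.9 control and 81.1 PEG1 summits per Mb over the last 1.22 Mb. The middle summit of each list accordingly lay beyond the middle of the sequence, at 15478916 in the control and 15415443 in PEG1, which is 59.0% and 58.8% of the way along.

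**Figure D1:**
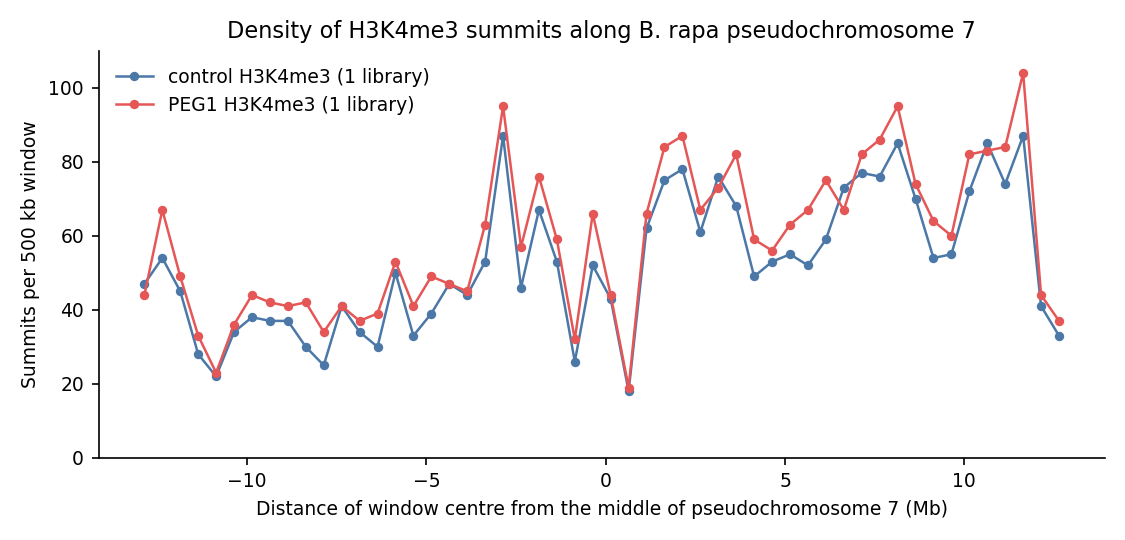
H3K4me3 summits per 500 kb window (vertical axis, counts) against the distance of the window from the middle of pseudochromosome 7 (horizontal axis, Mb), with 1 point per window for the control library (blue) and the PEG1 library (red). Counts ran from 18 to 87 in the control and from 19 to 104 in PEG1, and the curves rise and fall together along most of the sequence.

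Counts in the 52 complete windows of 500 kb varied far more than those of summits placed independently and evenly would. A window held a median of 52 control summits (range 18 to 87) and 59 PEG1 summits (19 to 104). The variance was 6.61 times the mean in the control and 6.93 times in PEG1, where summits placed independently and evenly would give a value near 1. The ratio grew with the window, from 1.79 and 1.88 at 50 kb to 11.3 and 11.8 at 1000 kb, so the unevenness was a matter of long stretches as well as of single windows. Neighbouring windows also held similar counts. The correlation of a window with the next was 0.59 (Pearson) and 0.63 (Spearman) in the control, and 0.57 and 0.61 in PEG1. These correlations describe 51 pairs of adjacent windows, and most windows enter 2 pairs. Among pseudochromosomes 1 to 10 the variance-to-mean ratio ran from 3.20 to 7.82 in the control and from 3.19 to 8.12 in PEG1.

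The 5 densest windows, by the sum over both lines, all had more than 160 summits. The window from 24500001 to 25000000 held 87 control and 104 PEG1 summits. That from 10000001 to 10500000 held 87 and 95, and that from 21000001 to 21500000 held 85 and 95. From 23500001 to 24000000 the counts were 85 and 83, and from 15000001 to 15500000 they were 78 and 87. Of these 5 windows 4 lay beyond 15 Mb. The window from 10000001 to 10500000 stood out from its surroundings, since the windows on either side held 53 and 46 control summits and 63 and 57 PEG1 summits.

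The 5 sparsest windows lay at 4 places in the first 14 Mb. The window from 13500001 to 14000000 held 18 control and 19 PEG1 summits. Over both lines together, the densest window held 5.16 times as many (3.62 to 7.55). This interval is too narrow, because it counts a site found in both lines as separate draws. It also ignores that the windows were picked as the extremes. At the low-coordinate end, the windows from 1500001 to 2000000 and from 2000001 to 2500000 held 28 and 33, and 22 and 23 summits, control first. The window from 12000001 to 12500000 held 26 and 32, and that from 5000001 to 5500000 held 25 and 34. Apart from these last 2 windows, in which PEG1 had the larger excess, the lines differed by at most 5 summits.

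Dense and sparse windows fell into 13 stretches when each window was set against the median of 110.5 summits of both lines. The longest dense stretch ran over 14 windows from 18000001 to 25000000, with 139 control and 155 PEG1 summits per Mb. The next ran from 14000001 to 17000000, at 140 and 153 per Mb. Between them lay 1 Mb, from 17000001 to 18000000, at 102 and 115 per Mb. Its windows held 108 and 109 summits of both lines, just under the median, while a window counted as dense held 112. The split between these dense stretches thus rests on a small margin. A shorter dense stretch, from 9500001 to 10500000, held 140 and 158 per Mb. The longest sparse stretch ran over 17 windows from 1000001 to 9500000, with 72.2 control and 81.9 PEG1 summits per Mb. The stretch from 13000001 to 14000000 was the sparsest named one, at 61 and 63 per Mb. The PEG1 to control ratio of these 6 stretches lay between 1.03 and 1.13. Over all 13 stretches it ran from 0.94 (0.61 to 1.44) in the single window from 1 to 500000 to 1.27 (0.87 to 1.86) in that from 12500001 to 13000000, and all intervals overlapped. These intervals are too wide for the same reason as that of the whole sequence, so their overlap does not show equal ratios. Stretches of 1 Mb from 11000001 to 12000000 and from 25000001 to 26000000 were as long as the shortest named ones, with ratios of 1.13 and 1.09.

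The longest interval without any summit ran from 13570118 to 13812723, 243 kb, and it was the longest in each list on its own. The next longest common interval lay just before it, from 13369783 to 13489770, 120 kb. In the 443 kb from the start of the one to the end of the other, 6 control and 6 PEG1 summits were found, all between the intervals or at their inner edges. Their median score was 7.47 in the control and 8.22 in PEG1, and the highest were 16.3 and 41.7. The summits around this place were chosen for description after the intervals were known. The other 3 of the 5 longest intervals lay near the low-coordinate end, from 2301634 to 2398139 (96.5 kb), 2002967 to 2085623 (82.7 kb) and 3163241 to 3237621 (74.4 kb). In all, 27 intervals were longer than 50 kb and made up 7.44% of the span. Intervals over 20 kb numbered 279 and made up 34.3%. On pseudochromosomes 1 to 10 the longest interval of a control list ran from 112 kb to 675 kb, with that of 7 inside this range.

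PEG1 summits more than 500 bp from the ends interrupted 3 of the 5 longest control intervals. From 1791473 to 1932591, 141 kb, no control summit was found, and PEG1 had 3 more than 500 bp inside it, at 1859406, 1861780 and 1931622. All of these were weak, with scores of 4.59, 5.45 and 4.12 against a PEG1 median of 19.3. A single PEG1 summit stood more than 500 bp inside each of the others, at 13489770 (score 3.52) and at 2002967 (8.80). None of the 5 longest PEG1 intervals held a control summit more than 500 bp from its ends.

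The median distance from a summit to the next of its list was 5886 bp in the control (5547 to 6222) and 5193 bp in PEG1 (4896 to 5439). The middle part of the distances ran from 2823 to 11960 bp in the control and from 2535 to 10796 bp in PEG1, between the lower and the upper quartile. Distances spread more widely than those of summits placed independently and evenly. The SD was 1.25 times the mean in the control and 1.24 times in PEG1, and uneven density along the sequence enters these values. The median spacing was 8306 bp in the control and 7405 bp in PEG1 over the first 10 Mb, and 4976 and 4553 bp from 10000001 to 25000000. It did not shrink at each step of density between 5 Mb segments. From 10000001 to 15000000 it was 5175 bp in the control and 4689 bp in PEG1, and in the denser next segment 5555 and 4997 bp, with overlapping intervals. The share of distances over 20 kb fell between these parts from 20.9% to 7.37% in the control and from 17.7% to 5.79% in PEG1. Successive distances were only weakly related, with a Spearman correlation of 0.08 over 2743 control pairs and 0.10 over 3075 PEG1 pairs of distances, each pair sharing a summit.

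**Figure D2:**
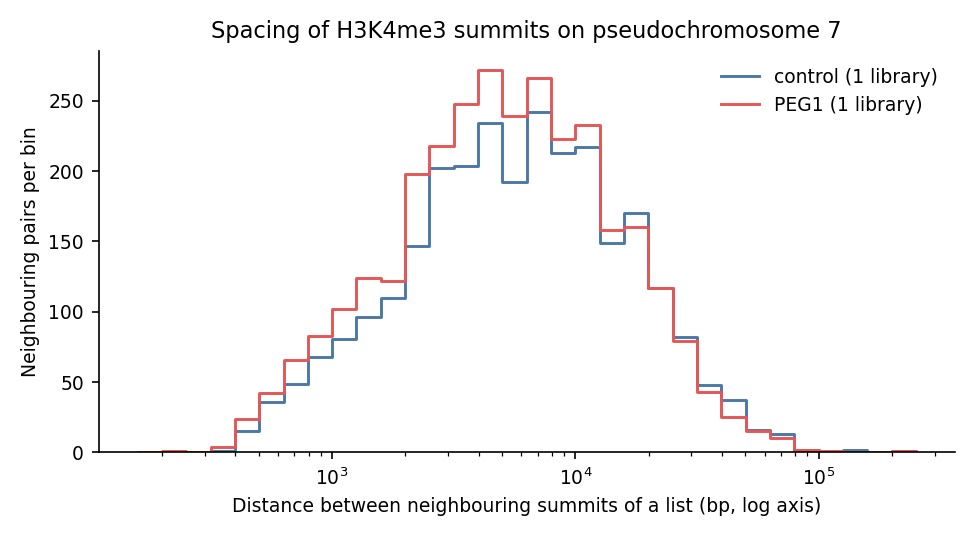
Number of neighbouring summit pairs of a list (vertical axis) by the distance between them (horizontal axis, bp, log axis), for the control library (blue) and the PEG1 library (red) on pseudochromosome 7. Both curves rise from about 400 bp to a broad top around the medians of 5886 and 5193 bp. Counts are not scaled to the 2744 control and 3076 PEG1 pairs, and the PEG1 curve lies higher from about 400 bp up to 15849 bp.

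Summits closer than 400 bp were nearly absent. How close the peak caller could place neighbouring summits is unknown, and its part in this was not tested. The control had 1 such pair, 374 bp apart, and PEG1 had 5, the closest 247 bp apart. From 400 to 500 bp there were 15 control and 24 PEG1 pairs. From 500 to 3000 bp the counts per 100 bp stayed between 19 and 37 in the control and between 22 and 52 in PEG1, and the fullest PEG1 bin was that from 2800 to 2900 bp. No test of a preferred distance was made. The pairs within 500 bp numbered 16 in the control and 29 in PEG1. In 6 control and 8 PEG1 pairs both members were matched to the other line at 150 bp. Such a pair stood at 1163399 and 1163836 in the control and at 1163408 and 1163838 in PEG1, and it was chosen after its values were seen.

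The tightest clusters of 10 summits lay in the denser part of the sequence. In the control they spanned 12.8 kb from 11357729 to 11370495, 16.9 kb from 16271461 to 16288411 and 17.3 kb from 23292879 to 23310141. In PEG1 they spanned 17.1 kb from 10483879 to 10500932, 17.4 kb from 11357774 to 11375195 and 18.6 kb from 21287054 to 21305625. The cluster that starts at 11357729 was thus named in both lists, and 7 of its 10 control summits and 8 of its 10 PEG1 summits had a partner within 150 bp. The control cluster from 16271461 was matched least, with 5 of 10 summits partnered and 4 more than 500 bp from any PEG1 summit. The median score of their members was 11.8, 8.29 and 21.2 in the control clusters, where the list median was 14.4. In the PEG1 clusters it was 17.7, 18.2 and 12.7, each below the list median of 19.3.

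Crowded summits scored lower and were matched less often than spaced ones. Of the 334 control summits within 1000 bp of another control summit, the median score was 10.2, and 66.2% (60.9 to 71.0) had a PEG1 summit within 150 bp. Of the 1044 with the nearest neighbour 2000 to 5000 bp away, the median score was 16.1 and 78.9% (76.3 to 81.3) were matched. In PEG1 the 431 crowded summits had a median score of 11.5 and 56.1% (51.4 to 60.8) were matched, against 21.0 and 71.5% (68.9 to 74.0) of the 1206 at 2000 to 5000 bp. Isolated summits, over 20 kb from any neighbour, numbered 55 and 51, and 85.5% (73.8 to 92.4) and 76.5% (63.2 to 86.0) of them were matched. Score and crowding moved together here, and their separate parts in the matching were not tested.

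Most summits of pseudochromosome 7 had a counterpart in the other line. Within 150 bp, about the length of DNA on a nucleosome, 2114 summits of each list were matched. This was 77.0% of the control summits (75.4 to 78.5) and 68.7% of the PEG1 summits (67.0 to 70.3), beside 79.1% and 69.5% over all 11 pseudochromosomes. Every one of these was a pair of mutually nearest summits. The control share was the lowest among pseudochromosomes 1 to 10, which ran from 77.0% to 80.3%, while the PEG1 share lay inside a range of 68.1% to 71.1%. No test of these differences between pseudochromosomes was made. Within 50 bp the shares were 56.5% of control and 50.4% of PEG1 summits, and within 1000 bp they were 95.4% and 85.9%.

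Matched summits were almost at the same base. The distance within a pair was a median of 28.5 bp (27 to 30), with quartiles of 13 and 53 bp, and 469 of 2114 pairs, 22.2%, lay within 10 bp. PEG1 stood at the higher coordinate in 1069 pairs, at the lower in 1004 and at the same base in 41. The median of PEG1 minus control was 1 bp, so neither list was shifted as a whole. Strong summits were placed more closely than weak ones: the median distance was 22 bp (20 to 25) in the strongest of 4 score classes of the control and 39 bp (33 to 45) in the weakest. By PEG1 score classes it was 23 bp (21 to 25) and 41 bp (37 to 51).

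**Figure D3:**
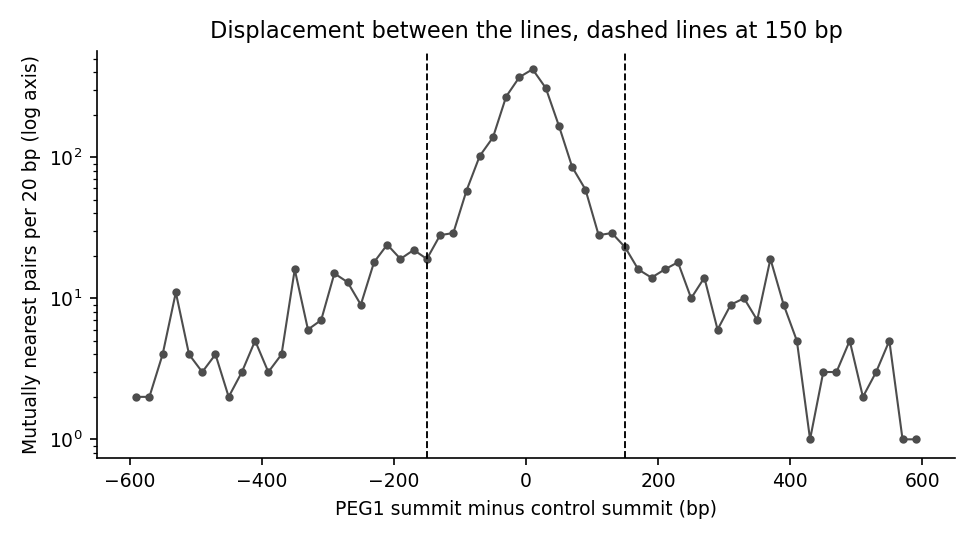
Number of mutually nearest control and PEG1 summits per 20 bp (vertical axis, log axis) by PEG1 position minus control position (horizontal axis, bp) on pseudochromosome 7. The curve is centred near 0, with a median of 1 bp, and 2114 pairs lie between the dashed lines at 150 bp on either side; outside them 355 pairs reach up to 500 bp.

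A further 355 mutually nearest pairs lay 150 to 500 bp apart, with PEG1 at the higher coordinate in 174 and at the lower in 181. Their number fell from 89 at 150 to 200 bp and 86 at 200 to 250 bp to 46 at 300 to 350 bp and 44 at 350 to 400 bp, and then to 16 at 400 to 450 bp. In bins of 20 bp, counts were 42 at 200 to 220 bp, 16 at 320 to 340 bp, 25 at 340 to 360 bp and 14 at 520 to 540 bp, where the neighbouring bins held 6 and 9. These bins were picked after the counts were seen, and bins this small differ by counting error alone.

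Displaced pairs were found among strong summits too. The best-ranked such pair stood at 21366005 in the control (score 50.0, rank 60 of 2745) and at 21365701 in PEG1 (70.8, rank 32 of 3077), 304 bp apart. The next stood at 15116052 (47.5) and 15115859 (56.9), 193 bp apart. Further pairs stood at 20049188 (42.9) and 20048973 (64.4), 215 bp apart, and at 20763956 (42.8) and 20764168 (64.9), 212 bp apart. The fifth, at 20224961 (52.2) and 20225304 (53.0), was 343 bp apart. In 3 of these 5 pairs the PEG1 summit stood at the lower coordinate.

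The order of strength was shared by the lines. Scores depend on the depth of a library, so a score printed for both lines describes its own list and makes no comparison between them. The strength of a pair is compared by rank within each list. Over the 2114 matched pairs the Spearman correlation of control and PEG1 scores was 0.85, a description of sites that share their sequence and mappability. When each list was cut into 4 score classes of equal size, 1286 pairs, 60.8%, fell into the same class in both lines, 766 were a class apart and 62, or 2.93%, were further apart. No control summit of the strongest class was paired with a PEG1 summit of the weakest, and no control summit of the weakest class with a PEG1 summit of the strongest. Of the 630 matched control summits in the strongest class, 503 were paired with the strongest PEG1 class.

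All of the 10 best-scored control summits and the 10 best-scored PEG1 summits had a counterpart no more than 72 bp away. Of these, 4 were among the best 10 in both lines. The best control summit, at 10960267 (score 105.8), had its PEG1 partner at 10960269 (99.5, rank 4). The best PEG1 summit, at 11921875 (128.8), had its control partner at 11921935 (91.0, rank 4). The others in common stood at 22513123 in the control (82.6, rank 6) and 22513084 in PEG1 (109.8, rank 2), and at 2528419 (94.3, rank 3) and 2528442 (89.0, rank 8).

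The other best control summits stayed within rank 51 of PEG1. They stood at 21281202 (95.3), 24375952 (87.6), 3814977 (81.1), 2398139 (80.6), 16409350 (77.8) and 2206328 (75.8). The other best PEG1 summits stayed within rank 54 of the control, and stood at 19390663 (99.9), 21458690 (91.0), 7375939 (90.6), 20404470 (89.8), 7305330 (88.6) and 25329544 (86.2). Wider sets also coincided only in part. Of the best 100 control summits, 50 had one of the best 100 PEG1 summits within 500 bp, 50.0% (40.4 to 59.6), and of the best 274 it was 178, 65.0% (59.1 to 70.4).

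The number of summits in a window said little about their scores. Over the 52 windows, the number of summits and the median score percentile had a Spearman correlation of −0.16 in the control and 0.03 in PEG1. The window from 2000001 to 2500000, the second sparsest, had the highest median score of all windows in both lines, 24.4 in the control and 40.5 in PEG1. Its 22 control and 23 PEG1 summits included 5 of the best 100 of each line, and the control summits at 2206328 and 2398139 were among its best 10. Some denser windows held as many of the best 100 among more summits. Those named here were picked for holding many of them and do not describe dense windows in general. The window from 20000001 to 20500000 held 5 of each line among 77 control and 82 PEG1 summits, and the densest, from 24500001 to 25000000, held 6 of the PEG1 line among 104. A window below the median count, from 25000001 to 25500000, held 5 of the control line among 41. The window from 1500001 to 2000000, just before the second sparsest one, had the lowest control median, 9.49, and a PEG1 median of 13.1. The lowest PEG1 median, 11.4, was found from 4500001 to 5000000, where the control median was 14.8. Windows with high medians in one line tended to have high medians in the other, with a Spearman correlation of 0.61 between their score percentiles over 52 windows that share most of their summits.

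The share of PEG1 summits hardly varied along the sequence. Over all complete windows it was 52.8%. In the 50 windows with at least 50 summits of both lines it had an SD of 2.30 percentage points and ranged from 47.9% to 58.3%, and 0 of the 50 exact binomial intervals left out the overall share. Independent counts of this size would have an SD of 4.93 points. Both this value and the intervals treat matched summits as separate draws, and most summits are matched, so both are too wide. PEG1 had more summits in 46 of 52 windows, the control in 4, and 2 were equal. Window counts of the lines had a Pearson correlation of 0.97 and a Spearman correlation of 0.97 over the 52 windows, which again share most of their sites.

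**Figure D4:**
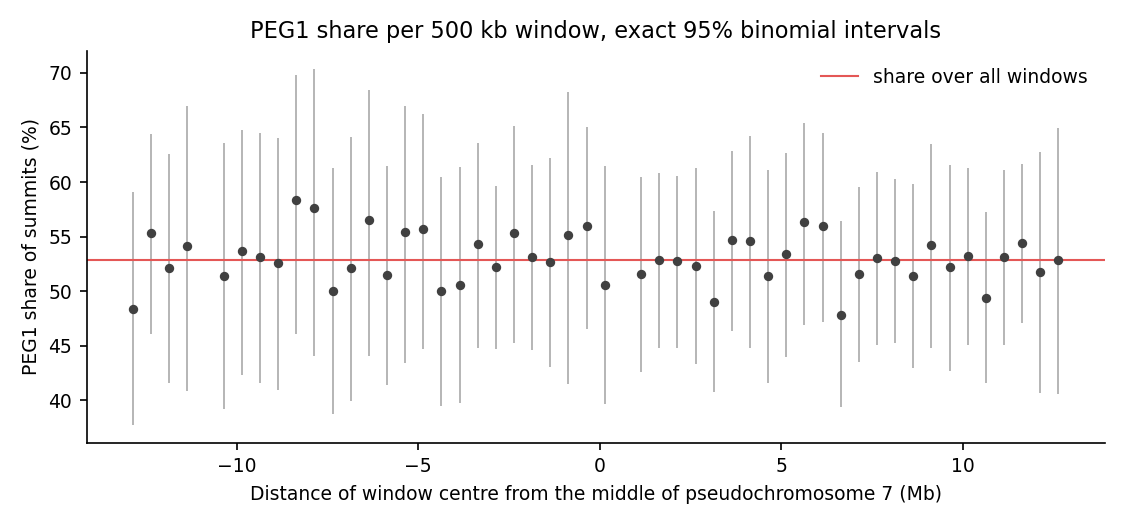
PEG1 summits as a percentage of the summits of both lines (vertical axis) per 500 kb window with at least 50 summits, by distance from the middle of pseudochromosome 7 (horizontal axis, Mb), with exact 95% binomial intervals as bars. Points lie between 47.9% and 58.3%, and every interval holds the overall share of 52.8% drawn as a red line.

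The highest PEG1 shares lay in the sparse low-coordinate part. They were 58.3% (46.1 to 69.8) from 4500001 to 5000000, with 42 PEG1 and 30 control summits, 57.6% (44.1 to 70.4) in the next window up to 5500000, with 34 and 25, and 56.5% (44.0 to 68.4) from 6500001 to 7000000, with 39 and 30. The lowest were 47.9% (39.3 to 56.5) from 19500001 to 20000000, with 67 PEG1 and 73 control summits, 48.4% (37.7 to 59.1) from 1 to 500000, with 44 and 47, and 49.0% (40.7 to 57.3) from 16000001 to 16500000, with 73 and 76. All of these intervals include the overall share.

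Summits with no partner in the other line were mostly among the weak ones of each list. No partner was found up to 500 bp away for 263 control summits, 9.58% (8.54 to 10.7), and 586 PEG1 summits, 19.0% (17.7 to 20.5). Over all 11 pseudochromosomes the shares were 7.76% and 18.7%. The control share was the highest among pseudochromosomes 1 to 10, which ran from 6.84% to 9.58%, and the PEG1 share lay inside their range of 17.3% to 20.8%. PEG1 offered more summits to match than the control did, so the shares of the lines are not comparable as such. With equally long lists they were 13.0% in both. Equal lengths force the shares together, so this value does not show how much list length contributes. The median score was 5.80 for the one-line summits of the control against 15.5 for its other summits, and 6.17 against 22.7 in PEG1.

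The share without a partner fell with each score class. In the control it was 23.7% (20.7 to 27.0) in the weakest class, then 8.60% and 3.94%, and 2.04% (1.22 to 3.40) in the strongest. In PEG1 it was 54.9% (51.4 to 58.4), 13.8%, 5.59% and 1.82% (1.09 to 3.03). In the strongest class 14 summits of each line were left.

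**Figure D5:**
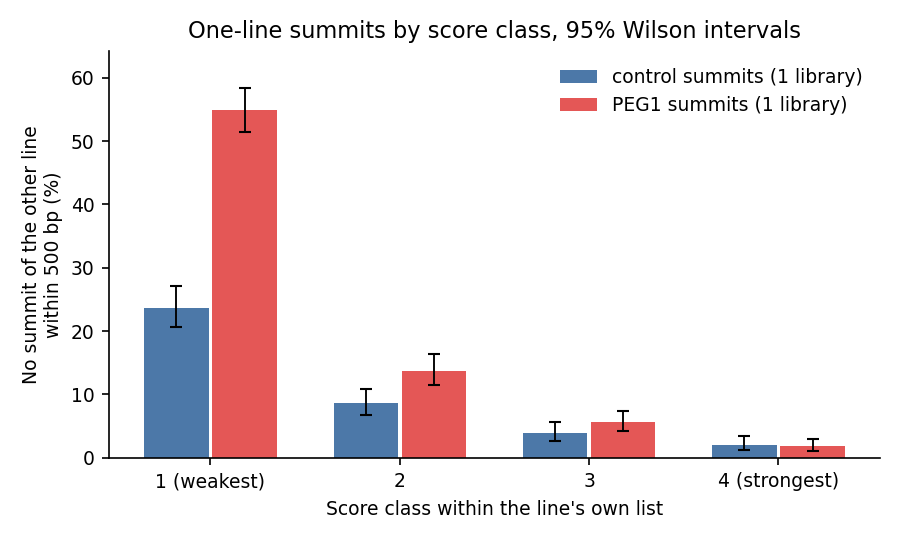
Percentage of summits without a partner in the other line up to 500 bp away (vertical axis) by score class within the line's own list (horizontal axis, weakest to strongest), for 1 control library (blue) and 1 PEG1 library (red), with 95% Wilson intervals as bars. The percentage falls from 23.7% to 2.04% in the control and from 54.9% to 1.82% in PEG1.

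The best-scored of these summits faced each other across a short distance. The best in the control stood at 11636268 (score 49.6), and the best in PEG1 at 11635634 (60.0), 634 bp away. The control summit at 11808901 (37.6) and the PEG1 summit at 11807957 (45.6) were 944 bp apart, and those at 20719179 (36.2) and 20720414 (43.8) were 1235 bp apart. So 3 of the 5 best one-line summits of the control and 3 of the 5 of PEG1 were each other's neighbours. The remaining ones stood at 15615852 (39.1) and 2864309 (38.5) in the control, 518 and 593 bp from a PEG1 summit, and at 997697 (46.7) and 16586172 (44.6) in PEG1, 676 and 998 bp from a control summit. Those at 15615852, 2864309 and 997697 were mutually nearest with these summits, so they too faced a one-line summit, of lower score class or rank. Over the whole sequence 75 such facing pairs lay within 1000 bp, 28.5% of the one-line summits of the control and 12.8% of those of PEG1. That count was added after the best summits had been seen.

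Summits far from any of the other line scored low as a group. More than 2000 bp from any PEG1 summit stood 62 control summits, with a median score of 4.60 and a highest of 16.9. More than 2000 bp from any control summit stood 307 PEG1 summits, with a median score of 5.69 and a highest of 43.6. More than 20 kb away stood 0 control and 10 PEG1 summits.

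One-line summits were scattered rather than grouped into long blocks. In the control 227 of 244 runs were single summits, 15 were pairs and 2 were triplets. The triplets covered 12.7 kb from 16876141 to 16888838, with a mean score of 8.25, and 4.37 kb from 11846984 to 11851358, with 4.11. The best-scored pair, from 23297037 to 23298377, had a mean score of 17.0. In PEG1 396 of 477 runs were single, 59 were pairs, 17 were triplets, 4 held 4 summits and 1 held 5. The run of 5 covered 10.2 kb from 22239520 to 22249752, with scores of 1.84 to 9.12. The best-scored runs of 4 covered 32.3 kb from 11803932 to 11836186, with scores of 2.12 to 45.6, and 2.65 kb from 10580868 to 10583519, with scores of 3.13 to 10.9. The widest run spanned 21.5 kb in the control, from 17694901 to 17716427, and 72.2 kb in PEG1, where it consisted of the 3 weak summits from 1859406 to 1931622 inside the long control interval. These widest runs were looked up after the others had been seen.

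By window, the one-line share ran from 0% to 20.8% in the control and from 2.27% to 35.3% in PEG1. The highest control share was found from 11500001 to 12000000, with 11 of 53 summits, where the PEG1 share was 28.8%, with 17 of 59. This window holds the facing pairs at 11636268 and 11808901. The highest PEG1 shares were 35.3% from 5000001 to 5500000, with 12 of 34, and 31.0% from 4500001 to 5000000, with 13 of 42, which are the windows with the highest PEG1 share of summits. The measures are linked by counting, since an excess of PEG1 summits tends to leave some without a control partner. The counts behind single windows are small. The number of one-line control and PEG1 summits per window had a Spearman correlation of 0.55 over 52 windows, and both counts rise with the number of summits in a window. Over 5 Mb segments the control share was 7.26% (5.04 to 10.4) in the first and 10.5% (8.46 to 12.9) in the fifth, and the PEG1 share was 18.3% (14.9 to 22.3) and 18.4% (15.9 to 21.2), and the intervals of the segments of a line overlapped. Matching within 150 bp did differ by position in the control. It was 79.7% (77.24 to 81.97) up to 13110572 and 75.2% (73.03 to 77.22) beyond it. In PEG1 it was 69.8% (67.24 to 72.29) and 67.9% (65.73 to 70.03). These differences were not tested.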

How the data were processed

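Native ChIP-seq of H3K4me3 from leaf was available as 1 control and 1 PEG1 library, each with a deposited list of summits on B. rapa pseudochromosomes. Per the submitters' processing notes, the authors used MACS2 (2.0) to call peaks. The sources used here name no aligner, background library or filter, and do not say how reads that fit both subgenomes were handled. The scores in the deposited lists are −log10 values of significance, of p-values or q-values. No source says which. None is a whole number, and the lowest, 1.31 and 1.30, lie just above the −log10 of 0.05. Many scores are tied, with 784 distinct values in the control and 957 in PEG1 on pseudochromosome 7. Depth is unknown.

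Each summit was compared with the nearest one of the other list. It counted as matched within 150 bp and as found in 1 line only when none lay within 500 bp. Windows of 500 kb began at position 1, and the 221 kb after the last complete window, with 15 control and 18 PEG1 summits, were left out of window counts. Intervals are Wilson for shares, exact binomial for window shares, exact conditional for ratios and by order statistics for medians. SciPy 1.17.1, matplotlib 3.10.9, pandas 2.3.3 and NumPy 2.4.6 were used under Python 3.11.15. The matching code was checked on simulated lists with known answers. Shared summits there stayed inside the matching distance and added ones lay far from any other. The check therefore says nothing on displaced or closely spaced summits.

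Named regions followed a rule: the 5 densest and 5 sparsest windows, 3 highest and 3 lowest PEG1 shares, 3 longest stretches of each kind, 5 longest intervals, 3 tightest clusters of 10 per list, 10 best summits, 5 best one-line summits, 3 longest one-line runs and 5 best displaced pairs. The pseudochromosome, distances and rules were chosen with earlier results of these data known. Alternatives changed the matching distance, the windows, the summits entering and the unit counted.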

Additional observations from a re-analysis of the deposited data

How the results depend on the processing

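Of 49 alternative values of 12 main results, 15 stayed inside the counting interval and 34 moved out of it; values follow with the control first. Matching at 50 bp paired 56.5% and 50.4% of the summits, matching at 300 bp 85.4% and 76.2%, matching at 500 bp 90.4% and 81.0%, and matching at 1000 bp 95.4% and 85.9%. At 150 bp the percentages were 80.0 and 73.2 with summits at or above the median score, and 74.4 in each line with equally long lists, which forces them together. The percentages without a partner were 4.55 and 14.1 at 1000 bp, 2.26 and 9.98 at 2000 bp, 12.6 in the control above the median score, and 13.0 and 13.0 with equally long lists. Equal lengths force these percentages together as well. For the percentages above the median score, both lists were cut at their own median. A partner below the cut of the other list therefore no longer counted, so these values do not show how strong summits are matched. Against the whole other list, score classes 3 and 4 lacked a partner in 3.94% and 2.04% of control summits, and in 5.59% and 1.82% of PEG1 summits. The median spacing was 11918 and 10470 bp above the median score, which removes summits by construction, and 6409 and 5557 bp between matched neighbours. The variance-to-mean ratio was 3.65 and 3.79 in 200 kb windows, 11.3 and 11.8 in 1000 kb windows, and 3.49 and 3.68 above the median score. The SD of the PEG1 share was 1.19 points in 1000 kb windows. The median distance of matched pairs was 33 bp when pairs up to 300 bp entered, 35 bp up to 500 bp, and 24 bp above the median score. The densest window held 3.03 times the summits of the sparsest at 1000 kb; at 200 kb a window with 0 summits left no ratio. The ratio of PEG1 to control summits was 1.09 above the median score and 1.12 for joined regions, but cutting each list at its own median holds the ratio by construction and joining merged only 16 control and 29 PEG1 pairs, so neither says anything on its stability. No paired analysis was possible because each line has 1 library, and for the same reason no library could be left out. Depth is unknown, so how many weak summits a deeper library would add cannot be read from the lists.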
